A study of Mus musculus with 12 samples.

Results

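The genes described here are the histone genes of the H1, H2A, H2B, H3 and H4 classes as they appear on the array: those whose symbol began with Hist1h, Hist2h, Hist3h or Hist4h, or whose updated symbol was H1f, H2ac, H2bc, H3c or H4c followed by a digit. The annotation already carries updated symbols and 0 of its entries begin with Hist1h to Hist4h, so members were in effect taken by the updated symbol, and genes of the Hist3 and Hist4 loci that now bear other symbols (H2aw, H2bu2 and H4f16) are not among them. Probe sets naming a single gene were used, and 30 of the 19937 genes measured in this way qualified. They comprise 8 H1, 4 H2A, 9 H2B, 3 H3 and 6 H4 genes, each with 1 probe set. Of these, 27 lie in the histone clusters, 23 in the Hist1 cluster on chromosome 13 and 4 (H2bc18, H2bc21, H3c15 and H4c14) in the Hist2 cluster on chromosome 3. The remaining 3 met the symbol rule but lie alone: H1f10 and the oocyte H1 gene H1f8 on chromosome 6 and the testis H1 gene H1f7 on chromosome 15. RefSeq lists 67 protein-coding mouse genes under these symbols, so 37 had no probe set of their own, and 36 of those appear only in probe sets that name several genes.

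Newly made RNA was measured in the following 4 groups of 3 arrays each, all from C57BL/6 mice. MPI-2 cells, a self-renewing macrophage line derived from fetal liver and grown in RPMI with GM-CSF, were given LPS or mock-treated, and bone marrow-derived macrophages (BMM), grown in DMEM with M-CSF, were given LPS or mock-treated. LPS, an outer membrane component of Gram-negative bacteria that macrophages detect through Toll-like receptor 4, was added 30 min before a 60 min pulse of 4-thiouridine, a uridine analogue that is built into RNA as it is transcribed, and both media held 10% fetal calf serum. MPI-2 is represented by 1 line, and growth factor, medium and array series cannot be told apart from cell type.

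Histone genes of the clusters are mostly transcribed in S phase, when new DNA has to be packed into nucleosomes of H2A, H2B, H3 and H4, with H1 bound to the DNA between them. Their messages end in a stem-loop in place of a poly(A) tail. The stem-loop is bound by Slbp, and the genes are gathered with NPAT and FLASH (Casp8ap2) in histone locus bodies in the nucleus. Some cluster genes, among them H1f2, H2bc4 and H2bc21, are also known to give polyadenylated messages outside S phase.

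Values are the deposited log2 values, so that a difference of 1 is a 2-fold change, and they give a gene's standing within its array, with no absolute amount. They were compared with limma across all genes, with Benjamini-Hochberg adjusted p and a threshold of 0.05. The SE follows each difference and the SD of 3 arrays each mean. A value of 3.36, the 95th percentile of the means of 1027 olfactory receptor genes, served as the background level. By their mean over the 12 arrays 25 of the 30 histone genes lay above it, as did 60.3% of all genes, and H1f6, H1f8, H2ac8, H2bc1 and H3c7 did not. Pairs of arrays from the same group had Pearson's r over genes of at least 0.994 in MPI-2 and at least 0.975 in BMM. The median SD of the histone genes above background was 0.141 in MPI-2 LPS, 0.195 in MPI-2 mock, 0.210 in BMM LPS and 0.397 in BMM mock, where that of all genes above background was 0.218. Replicate numbers are those of the sample titles, and for MPI-2 mock the descriptions number the samples 2 to 4 instead. In BMM mock, replicate 1 was the highest array for 19 of these 25 genes and replicate 2 the lowest for 14, and replicate 2 was also the lowest MPI-2 mock array for 18. In MPI-2 LPS, replicate 2 was the lowest for 15 and replicate 3 the highest for 15, and in BMM LPS replicate 1 was the lowest for 13. Of all 12030 genes above background, BMM mock replicate 1 was the highest for 4702 and MPI-2 LPS replicate 3 for 3539. The lowest array was BMM mock replicate 2 for 34.4%, MPI-2 mock replicate 2 for 30.5%, MPI-2 LPS replicate 2 for 35.2% and BMM LPS replicate 1 for 34.2% of them. Of the 59 replication and S phase genes described at the end, BMM mock replicate 2 was the lowest for 18. All 8 macrophage markers examined were above background in every group. Of 3 megakaryocyte markers, 1 was above background in MPI-2 and 3 in BMM, with Pf4 at 2.52 ± 0.02 in MPI-2 LPS, 2.54 ± 0.15 in MPI-2 mock, 6.86 ± 0.66 in BMM LPS and 6.41 ± 0.36 in BMM mock. Of 4 fibroblast markers 3 were above background in each group, with Pdgfra at 4.41 ± 0.27 in MPI-2 LPS, 6.13 ± 0.20 in MPI-2 mock, 3.50 ± 0.24 in BMM LPS and 3.39 ± 0.07 in BMM mock. The 3 germ line and 3 mast cell markers lay under background in all groups, and T cell, B cell, erythroid and granulocyte precursor markers reached at most 4.05. The part of other cells in the results below was not tested. The samples are called biological replicates in the titles with no animal or culture named, so p-values here reflect only how much these samples vary, which may be technical in part.

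**Figure D1:**
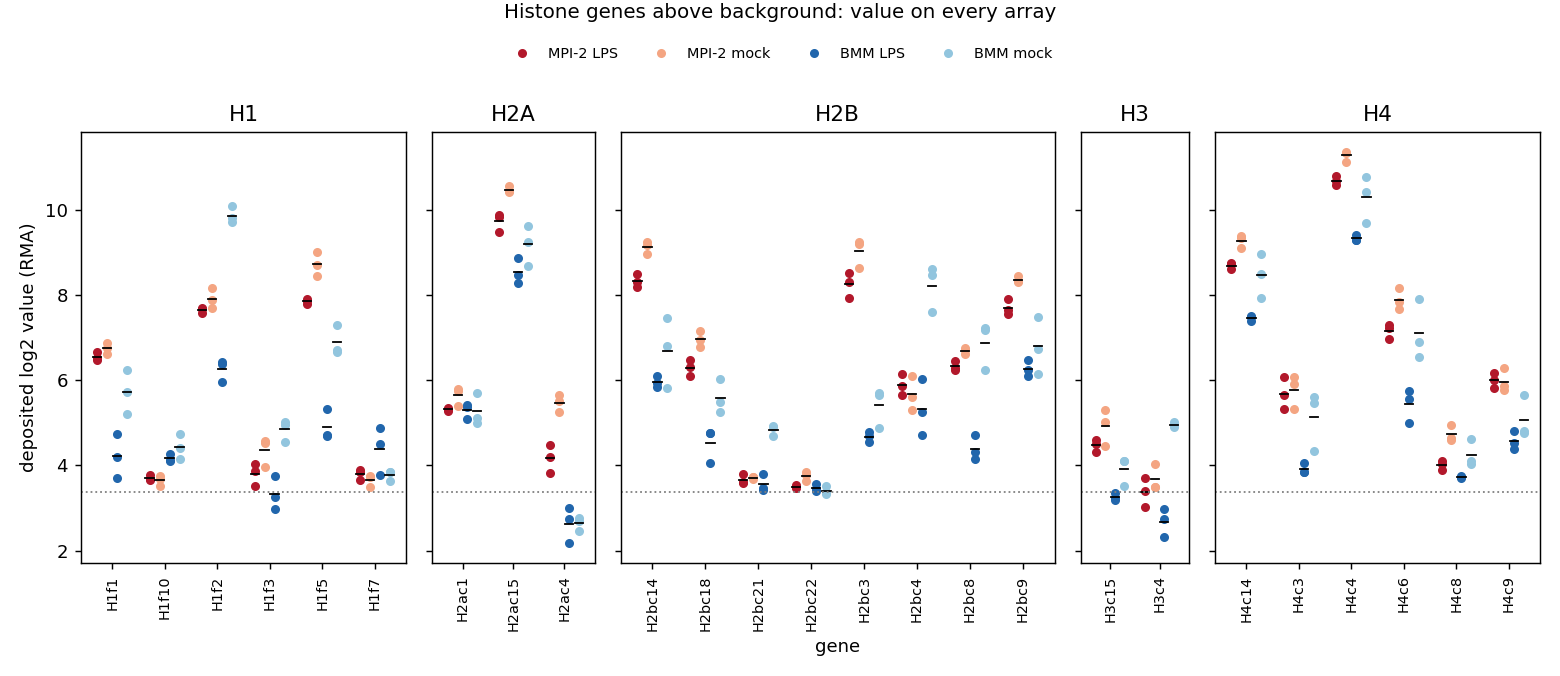
Deposited log2 value (vertical axis) of each of the 25 histone genes above background on every array, by histone class. Points are single arrays, short lines are group means and the dotted line is the background level of 3.36. The 3 BMM LPS arrays of H1f2 (5.95 to 6.42) lie far below the 3 BMM mock arrays (9.70 to 10.08), while the MPI-2 LPS and mock arrays lie close together.

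The promoters of the 4 genes that stand for the patterns described below are given first, as the 250 bases before the annotated start in RefSeq (GRCm38.p6, plus strand). H1f2, H2bc8 and H3c4 had 3 of the 4 largest LPS decreases in BMM, and H2bc3 had the largest excess in MPI-2. Capitals mark matches, at any position, to the sequences of the CCAAT box (CCAAT, or ATTGG on the other strand), the TATA box (TATAAA or TTTATA), the octamer typical of H2A and H2B promoters (ATTTGCAT or its reverse complement) and the AAACACA element typical of H1 promoters (AAACACA or TGTGTTT). The windows are chr13:23738557-23738806 for H1f2, chr13:23571150-23571399 for H2bc8, chr13:23575513-23575762 for H3c4 and chr13:23746484-23746733 for H2bc3.
H1f2: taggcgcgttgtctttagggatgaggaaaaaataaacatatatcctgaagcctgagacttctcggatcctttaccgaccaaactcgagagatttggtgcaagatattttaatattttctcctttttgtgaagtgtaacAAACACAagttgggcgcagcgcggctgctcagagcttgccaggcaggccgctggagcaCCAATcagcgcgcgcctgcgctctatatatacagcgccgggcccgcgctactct
H2bc8: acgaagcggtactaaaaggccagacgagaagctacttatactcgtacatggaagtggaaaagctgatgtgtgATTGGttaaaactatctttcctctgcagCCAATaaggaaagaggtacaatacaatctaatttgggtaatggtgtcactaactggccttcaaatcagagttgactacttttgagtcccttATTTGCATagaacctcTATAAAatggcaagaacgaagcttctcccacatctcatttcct
H3c4: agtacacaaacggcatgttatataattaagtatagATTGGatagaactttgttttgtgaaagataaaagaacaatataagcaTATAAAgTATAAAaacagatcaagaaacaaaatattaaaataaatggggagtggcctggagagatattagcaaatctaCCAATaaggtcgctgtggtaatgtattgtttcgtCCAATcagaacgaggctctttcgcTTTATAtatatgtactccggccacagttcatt
H2bc3: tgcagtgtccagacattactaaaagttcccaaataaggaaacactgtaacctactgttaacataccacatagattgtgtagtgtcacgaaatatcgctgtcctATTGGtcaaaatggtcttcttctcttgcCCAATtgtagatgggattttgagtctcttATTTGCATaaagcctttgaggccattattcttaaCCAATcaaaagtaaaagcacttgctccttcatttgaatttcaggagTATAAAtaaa

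Among the 26 histone genes with a 300-base window in RefSeq's promoters (250 bases before and 50 after the start, both strands searched), the CCAAT sequence was found in 21 (80.8%, against 37.4% of all 32851 windows) and the TATAAA sequence in 15 (57.7%, against 13.6%). Matches were counted at any position. The only TATAAA match lay at -250 in H4c6, -137 in H4c9, -94 in H2bc1 and 22 in H2ac15, counted from the start. On the other strand, the only match lay at -212 in H2bc22 and -142 in H2ac8. A match therefore need not be a working TATA box. The octamer occurred in 8 (30.8%, against 1.74%), namely in 3 of 4 H2A, 5 of 7 H2B and 0 of 15 other genes. The AAACACA element also occurred in 8 (30.8%, against 7.18%), 4 of them among the 8 H1 genes. The motifs do not overlap each other in the printed windows, but the windows of the divergent neighbours H2ac8 and H2bc8, and those of H2ac1 and H2bc1, overlap and share matches. Of the 8 genes with an octamer, 3 fell with LPS in BMM, and of the 18 without, 11 did. For the AAACACA element these counts were 3 of 8 with it and 11 of 18 without. Some of these genes lay under background in BMM mock, where a decrease could hardly be measured. They were H2ac4, H2ac8 and H2bc1 with an octamer, and H1f6 and H1f8 without. For the AAACACA element they were H1f6, H2ac4 and H2bc1 with it, and H1f8 and H2ac8 without. Background therefore limits these counts. These matches describe the windows, and whether they bear on the response was not tested.

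The first comparison asked how LPS changed the making of histone RNA in BMM. Of the 30 genes 17 fell and 1 rose, where 15.4% of all genes fell and 10.3% rose (24.5% and 14.3% of genes above background). All 17 that fell lie in the clusters, and 12 of them fell at least 2-fold. The median difference was -0.70 over the 30 genes, against 0.04 over all genes. For 16 of the 30 the 3 LPS arrays lay below the 3 mock arrays, against 16.5% of all genes, and for 0 they lay above, against 15.6%. Fewer BMM in S phase and less histone RNA made in each cell cannot be told apart in these arrays.

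H1 genes held the largest change. H1f2 (H1.2, chromosome 13, 23738807 to 23739531), a linker histone, read 6.42, 6.39 and 5.95 in BMM LPS, against 10.08, 9.70 and 9.81 in BMM mock. The groups were far apart, and the difference of -3.61 ± 0.16 is a 12.2-fold decrease (adjusted p = 1.87e-10). H1f5 read 4.69, 5.32 and 4.71 in BMM LPS and 7.29, 6.72 and 6.65 in BMM mock, again without overlap, and fell by 1.98 ± 0.20 (adjusted p = 1.68e-06). The linker histones H1f1 and H1f3 also fell, with differences of -1.52 ± 0.25 and -1.52 ± 0.21, and the BMM LPS mean of H1f3 (3.33 ± 0.38) lay just under background. H1f10, the H1 gene outside the clusters that is made throughout the cell cycle, read 4.17 ± 0.09 in BMM LPS and 4.43 ± 0.29 in BMM mock and did not pass (-0.27 ± 0.14, adjusted p = 0.197). The testis gene H1f7 was the 1 member that rose (0.62 ± 0.21, adjusted p = 0.0383), with 4.51, 3.78 and 4.88 in BMM LPS and 3.85, 3.85 and 3.63 in BMM mock. Its arrays overlapped, and the call was lost in 11 of 22 alternatives, among them without BMM LPS replicate 3 (0.37).

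Of the 9 H2B genes 5 fell. H2bc4 (8282 bases long, chromosome 13, 23684199 to 23692480) read 4.71, 5.26 and 6.02 in BMM LPS, against 8.61, 7.59 and 8.46 in BMM mock, a 7.43-fold decrease (-2.89 ± 0.31, adjusted p = 3.14e-06). H2bc8, whose promoter is shown above, read 4.14, 4.32 and 4.72 in BMM LPS and 6.25, 7.24 and 7.17 in BMM mock (-2.49 ± 0.22, adjusted p = 3.24e-07). Neither gene's LPS arrays reached its lowest mock array. H2bc21 fell by 1.27 ± 0.13 and H2bc18 by 1.06 ± 0.21, both in the chromosome 3 cluster, and H2bc3 by 0.74 ± 0.22. H2bc14 and H2bc9 did not pass. H2bc14 read 5.84, 5.94 and 6.10 in BMM LPS and 7.46, 5.82 and 6.80 in BMM mock (-0.73 ± 0.28, adjusted p = 0.0654), and H2bc9 differed by -0.52 ± 0.24 (adjusted p = 0.131). In both, BMM mock replicate 2 lay within or just below the range of the LPS arrays, and without it both fell, with differences of -1.17 and -0.84. Of the 30 genes 19 then fell, as they also did with both mock arrays of replicate 2 left out.

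Of the 6 H4 genes 5 fell. H4c4 read 9.29, 9.40 and 9.30 in BMM LPS and 10.77, 9.69 and 10.41 in BMM mock and fell by 0.96 ± 0.20 (adjusted p = 0.00175). H4c14 read 7.49, 7.51 and 7.38 in BMM LPS and 8.96, 7.94 and 8.49 in BMM mock and differed by -1.003 ± 0.19 (adjusted p = 0.000889). In both genes the LPS arrays agreed far more closely than the mock arrays. H4c6 fell by 1.69 ± 0.27, H4c3 by 1.23 ± 0.29 and H4c8 by 0.52 ± 0.16, and H4c9 did not pass (-0.50 ± 0.22, adjusted p = 0.108).

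Both H3 genes above background fell. H3c4 read 2.33, 2.74 and 2.97 in BMM LPS and 5.01, 4.90 and 4.96 in BMM mock, a difference of -2.28 ± 0.20 (adjusted p = 3.57e-07) that background limits, since all 3 LPS arrays lay under 3.36. H3c15 fell by 0.66 ± 0.20 to a mean of 3.25 ± 0.08 in BMM LPS, also under background. Among H2A genes H2ac15, with 8.28, 8.47 and 8.87 in BMM LPS and 9.62, 8.69 and 9.25 in BMM mock, fell by 0.65 ± 0.21 (adjusted p = 0.0297), although its arrays overlapped. H2ac1, a testis histone, read 5.29 ± 0.18 in BMM LPS and 5.27 ± 0.38 in BMM mock and did not pass (0.03 ± 0.17, adjusted p = 0.936). H2ac4 was under background in both BMM groups, and H2bc22 differed by 0.07 ± 0.11 (adjusted p = 0.733). Of the 18 calls 13 held in every alternative, and H2ac15, H2bc3, H3c15, H4c8 and H1f7 did not. Without BMM mock replicate 1, the differences of the 4 that had fallen were -0.43 for H2ac15, -0.60 for H2bc3, -0.56 for H3c15 and -0.34 for H4c8, and none passed.

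**Figure D2:**
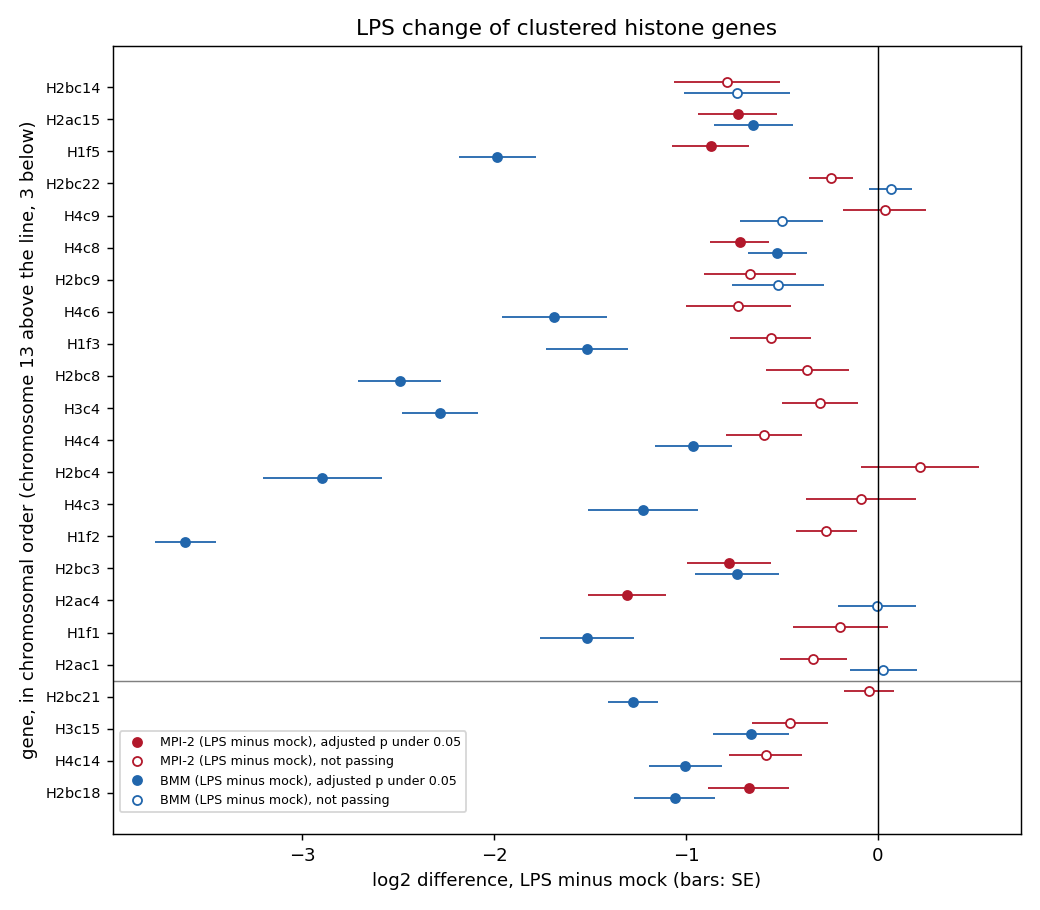
Log2 difference between LPS and mock (horizontal axis, bars are SE) of the 23 cluster genes above background, in chromosomal order, in MPI-2 and BMM. Filled points passed an adjusted p of 0.05. The MPI-2 points of H1f2 (-0.27) and H2bc4 (0.22) lie far to the right of their BMM points (-3.61 and -2.89), whereas those of H2bc3 nearly coincide (-0.78 in MPI-2, -0.74 in BMM).

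The decreases were spread over the clusters. In the chromosome 13 stretch from 23531044 to 23934913, 11 of 18 genes fell in BMM (median -0.85), and in the stretch from 21722044 to 22041362, 2 of 5 fell (median -0.65). On chromosome 3, between 96221072 and 96270192, 4 of 4 fell (median -1.03). Close neighbours could differ, as did H1f2 (-3.61), H2bc3 (-0.74) and H2ac4 (-0.01, under background in BMM), whose starts lie within the same stretch. No test between the stretches was made.

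The same question was put to MPI-2, where fewer genes passed. Of the 30 genes 6 fell and 0 rose, where 9.58% of all genes fell and 5.17% rose (15.5% and 8.02% of genes above background). An unadjusted p under 0.05 was found for 14 of the 30, for 4694 of all 19937 genes and for 4374 of the 12030 above background. The median difference was -0.32, against 0.02 over all genes. The 3 LPS arrays lay below the 3 mock arrays for 14 genes, where 20.5% of all genes did so, and above them for 2 (H1f6 and H1f8, both under background), where 16.6% did so. The largest decrease was that of H2ac4, an H2A gene, with 4.20, 3.82 and 4.47 in MPI-2 LPS, against 5.66, 5.51 and 5.26 in MPI-2 mock (-1.31 ± 0.20, adjusted p = 0.000293). All its LPS arrays lay under the lowest mock array. H1f5 read 7.87, 7.90 and 7.79 in MPI-2 LPS and 9.01, 8.45 and 8.71 in MPI-2 mock and fell by 0.87 ± 0.20 (adjusted p = 0.00642). H4c8 fell by 0.72 ± 0.16 (adjusted p = 0.00429), H2bc3 by 0.78 ± 0.22, H2ac15 by 0.73 ± 0.21 and H2bc18 by 0.67 ± 0.21. H2bc3 read 8.31, 7.94 and 8.50 in MPI-2 LPS and 9.25, 8.64 and 9.19 in MPI-2 mock, and H2ac15 read 9.88, 9.48 and 9.84 in MPI-2 LPS and 10.55, 10.41 and 10.44 in MPI-2 mock. Both had a gap between the groups.

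The 4 genes with the largest decreases in BMM did not pass in MPI-2. H1f2 read 7.57, 7.66 and 7.69 in MPI-2 LPS and 8.17, 7.87 and 7.69 in MPI-2 mock (-0.27 ± 0.16, adjusted p = 0.366, 95% interval -0.61 to 0.07). H2bc4 read 5.87, 5.65 and 6.16 in MPI-2 LPS and 6.11, 5.61 and 5.31 in MPI-2 mock (0.22 ± 0.31, adjusted p = 0.794, 95% interval -0.44 to 0.88). H2bc8 read 6.28, 6.25 and 6.45 in MPI-2 LPS and 6.76, 6.62 and 6.70 in MPI-2 mock (-0.37 ± 0.22, 95% interval -0.83 to 0.09), a small gap. H3c4 had 3.37 ± 0.35 in MPI-2 LPS and 3.68 ± 0.32 in MPI-2 mock, and H2bc21 3.66 ± 0.12 in MPI-2 LPS and 3.71 ± 0.03 in MPI-2 mock, all near background. Differences just short of the threshold were those of H4c14 (-0.59 ± 0.19, adjusted p = 0.0534), H4c4 (-0.59 ± 0.20, 0.0611), H2bc14 (-0.79 ± 0.28, 0.0731), H2bc9 (-0.67 ± 0.24, 0.0805) and H4c6 (-0.73 ± 0.27, 0.0997), all with LPS arrays below mock arrays. H4c9 (0.04 ± 0.22), H4c3 (-0.09 ± 0.29) and H1f1 (-0.20 ± 0.25) had the smallest differences among cluster genes with values over 5 on all MPI-2 arrays. The genes that fell in both cell types were H1f5, H2ac15, H2bc18, H2bc3 and H4c8, which are 5 of the 6 that fell in MPI-2 and 5 of the 17 that fell in BMM. With the 6 MPI-2 arrays alone, and so without the more variable BMM arrays in the spread, 14 genes fell and 1 rose, and with arrays weighted by their spread 15 fell and 1 rose, in both cases H1f6, a testis gene under background. The count was 11 without BMM mock replicate 1, 10 without BMM mock replicate 2 and 3 without either MPI-2 LPS replicate 2 or MPI-2 mock replicate 1, and 3 genes (H1f5, H2ac4 and H4c8) kept their call in every alternative. How many of all genes passed in these alternatives was not counted, so their histone counts cannot be set against a share of all genes.

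The difference of the LPS responses, MPI-2 minus BMM, was tested directly. It passed for 9 of the 30 genes, 8 higher and 1 lower, where 7.08% and 6.27% of all genes passed (11.1% and 9.84% of genes above background). A positive value here means a smaller decrease, or none, in MPI-2. H1f2 led with 3.34 ± 0.22 (adjusted p = 9.53e-08), followed by H2bc4 (3.11 ± 0.44, 0.000135), H2bc8 (2.12 ± 0.30, 0.000168), H3c4 (1.98 ± 0.28, 0.000154) and H1f1 (1.32 ± 0.35, 0.0186). H2bc21 (1.23 ± 0.18), H1f5 (1.11 ± 0.28) and H1f3 (0.96 ± 0.30, adjusted p = 0.0478) also passed. For H2bc21 and H3c4 the MPI-2 mock means (3.71 ± 0.03 and 3.68 ± 0.32) lay close to background, where little further decrease could be measured. H2ac4 went the other way (-1.30 ± 0.29, adjusted p = 0.00579), and there both BMM groups lay under background. No H4 gene passed, with H4c3 (1.14 ± 0.40, adjusted p = 0.0828) and H4c6 (0.96 ± 0.39, adjusted p = 0.139) nearest. For H2bc3, H2bc14 and H2ac15 the responses differed by -0.04 ± 0.31, -0.06 ± 0.39 and -0.08 ± 0.29, with a 95% interval of -0.70 to 0.62 for H2bc3. H1f1 lost its call in 3 of 21 alternatives, after quantile normalization (1.45), without MPI-2 LPS replicate 3 (1.27) and without MPI-2 mock replicate 2 (1.25), and H1f5 in 1, after quantile normalization (0.87). H1f3 lost its call in 12 of 21, among them the replicate block (0.96), cyclic loess (0.93) and 9 arrays left out singly (from 0.76 without MPI-2 mock replicate 3 to 1.07 without MPI-2 mock replicate 1). Without BMM mock replicate 2, H4c3 (1.54), H4c6 (1.24), H4c14 (0.68) and H4c4 (0.67) passed.

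Between the mock-treated cells, most histone genes had higher values within the arrays of MPI-2. Of the 30 genes 17 were higher and 5 lower in MPI-2 than in BMM, where 20.6% and 18.0% of all genes were (33.2% and 23.0% of genes above background). The 3 MPI-2 arrays lay above the 3 BMM arrays for 16 genes and below them for 6, where 23.0% and 29.3% of all genes did so. The median difference was 0.58, against -0.10 over all genes. H2bc3 read 9.25, 8.64 and 9.19 in MPI-2 mock, against 5.69, 4.87 and 5.66 in BMM mock, a 12.3-fold excess (3.62 ± 0.22, adjusted p = 2.52e-09). H2ac4 read 5.66, 5.51 and 5.26 in MPI-2 mock and 2.76, 2.70 and 2.46 in BMM mock, the second under background (2.83 ± 0.20). H2bc14 exceeded BMM by 2.43 ± 0.28, H1f5 by 1.84 ± 0.20, H2bc9 by 1.57 ± 0.24, H2bc18 by 1.37 ± 0.21 and H2ac15 by 1.27 ± 0.21, and in all of these the groups did not overlap. Smaller excesses were those of H1f1, H3c15, H4c4, H4c9, H4c14, H4c6 and H4c8, from 1.02 for H1f1 to 0.47 for H4c8, and of H2bc22 (0.34), H2bc1 (0.67) and H2ac8 (0.53), the last 2 at or under background.

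The genes lower in MPI-2 mock were 4 cluster genes and H1f10. H2bc4 read 6.11, 5.61 and 5.31 in MPI-2 mock, against 8.61, 7.59 and 8.46 in BMM mock (-2.55 ± 0.31, adjusted p = 6.46e-06). H1f2 read 8.17, 7.87 and 7.69 in MPI-2 mock and 10.08, 9.70 and 9.81 in BMM mock (-1.95 ± 0.16, adjusted p = 7.72e-08). H3c4 read 4.04, 3.49 and 3.50 in MPI-2 mock and 5.01, 4.90 and 4.96 in BMM mock (-1.28 ± 0.20), and H2bc21 read 3.73, 3.67 and 3.72 in MPI-2 mock and 4.69, 4.92 and 4.91 in BMM mock (-1.13 ± 0.13). In each of these 4 every MPI-2 array lay below every BMM array. Their LPS differences in BMM, given above, rest on the same BMM mock arrays. H1f10 differed by -0.78 ± 0.14. H1f3, H1f7, H2ac1, H2bc8 and H4c3 did not pass, and the difference of H2bc8 was -0.19 ± 0.22 (95% interval -0.65 to 0.27). Of the 22 calls 13 held in every alternative, and 9 were lost in at least 1. After a further cyclic loess scaling H4c4 (0.57), H4c14 (0.38) and H4c6 (0.38) no longer passed, and without BMM mock replicate 2 H4c6 (0.49), H4c8 (0.36) and H2ac8 (0.44) did not. With each array centred on its genes above background, H2ac8, H2bc1, H2bc22, H4c6 and H4c8 were no longer called higher in MPI-2 mock.

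**Figure D3:**
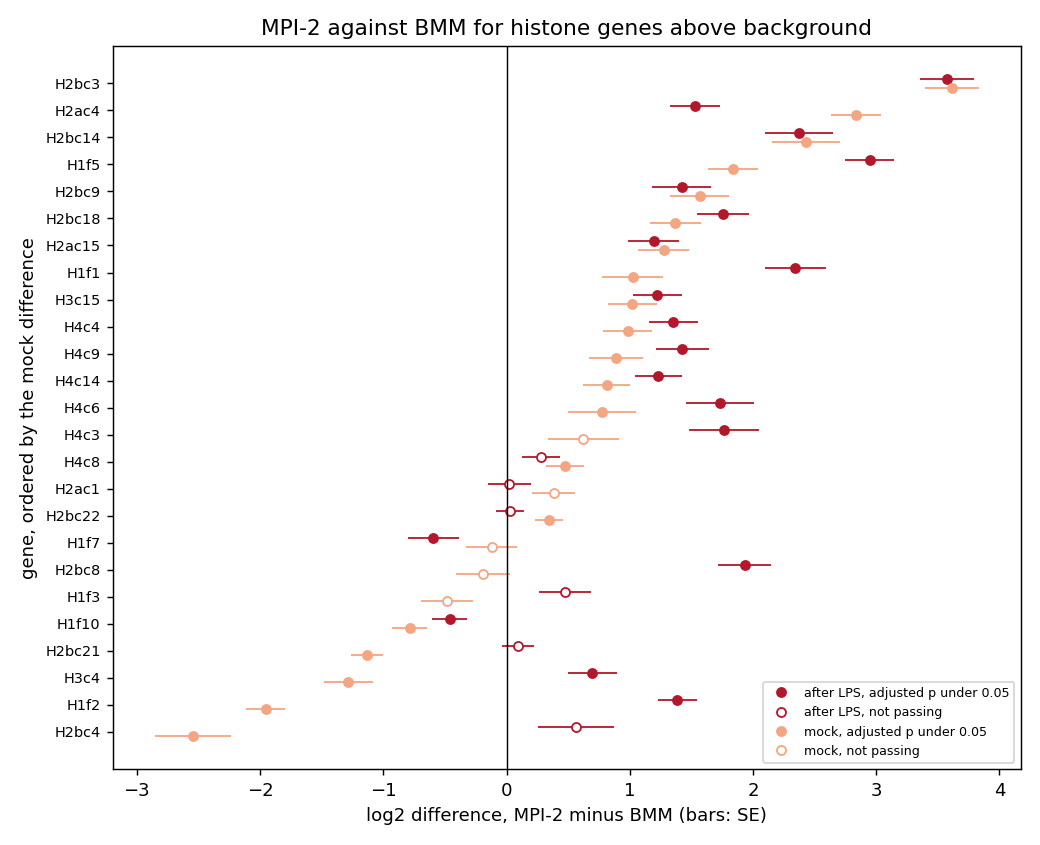
Log2 difference between MPI-2 and BMM (horizontal axis, bars are SE) of the 25 histone genes above background, after LPS and in mock, ordered by the mock difference. Filled points passed an adjusted p of 0.05. H2bc4, H1f2, H3c4 and H2bc21 lie left of 0 in mock and right of 0 after LPS, while H2bc3 stays near 3.6 in both. After LPS H2bc4 and H2bc21 did not pass, and the BMM LPS mean of H3c4 lay under background.

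After LPS most histone genes were again higher in MPI-2. Of the 30 genes 18 were higher and 2 lower in MPI-2 than in BMM, where 22.5% and 21.6% of all genes were (36.5% and 23.6% of genes above background). The arrays did not overlap for 19 genes above and 1 below, where 24.4% and 31.1% of all genes did so, and the median was 1.21, against -0.14 over all genes. Of these 18, 14 were among the 17 higher in MPI-2 mock, 2 further genes (H2bc8 and H4c3) were higher after LPS alone, and 2 (H1f2 and H3c4) were lower in MPI-2 mock. H1f2 read 7.57, 7.66 and 7.69 in MPI-2 LPS, against 6.42, 6.39 and 5.95 in BMM LPS (1.39 ± 0.16, adjusted p = 2.86e-06). H2bc8 read 6.28, 6.25 and 6.45 in MPI-2 LPS and 4.14, 4.32 and 4.72 in BMM LPS (1.93 ± 0.22, adjusted p = 2.16e-06). The largest differences were those of H2bc3 (3.58 ± 0.22, adjusted p = 2.18e-09), H1f5 (2.95 ± 0.20, 7.03e-09), H2bc14 (2.37 ± 0.28, 3.38e-06) and H1f1 (2.34 ± 0.25, 1.1e-06). H4c3 (1.76 ± 0.29), H4c6 (1.73 ± 0.27), H4c9 (1.43 ± 0.22), H4c4 (1.35 ± 0.20) and H4c14 (1.23 ± 0.19) exceeded BMM at least 2-fold, as did H2bc18 (1.76 ± 0.21), H2ac4 (1.53 ± 0.20), H2bc9 (1.42 ± 0.24), H3c15 (1.22 ± 0.20) and H2ac15 (1.19 ± 0.21). H3c4 (0.70 ± 0.20) passed with a BMM LPS mean under background. H2bc4 (0.57 ± 0.31, adjusted p = 0.147) and H2bc21 (0.09 ± 0.13, adjusted p = 0.56) did not pass. The genes lower in MPI-2, H1f10 (-0.46 ± 0.14) and H1f7 (-0.60 ± 0.21), both lie outside the clusters. Without MPI-2 LPS replicate 3 neither of them passed, nor did H3c4 (0.53) and H2bc1 (0.34), and without BMM LPS replicate 3 H2bc4 passed (0.91).

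Probe sets that name several genes, histone genes among them, cover most of the members that had none of their own, and they were fitted among all 34760 probe sets. There were 22, of which 20 lay above background, each naming 2 to 19 genes. With LPS in MPI-2 4 fell and 0 rose (median -0.59), where 5.026% of all probe sets fell, and in BMM 15 fell and 0 rose (median -1.10), where 10.78% fell. The 4 that fell in MPI-2 were H3 sets. In BMM 8 of 9 H3 sets, 4 of 5 H4 sets and 2 of 6 H2B sets fell. Relative to BMM, 19 were higher in MPI-2 LPS (median 1.93, where 18.78% of all probe sets were higher) and 17 in MPI-2 mock (median 1.34, where 16.09% were), with 0 lower. These sets cannot tell single genes apart, name many of the same genes, and are not independent of each other. Near-identical copies can also add signal to probe sets that name a single gene. The shares of all 34760 probe sets take in those under background and 11799 unnamed ones. Shares among probe sets above background were not counted.

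Genes that belong with histone supply were read from the same fit, and a gene such as Slbp, Ccne1 or Cdk2 can stand in more than 1 list. Of the genes above background, LPS lowered 15.5% and raised 8.02% in MPI-2, and lowered 24.5% and raised 14.3% in BMM. Relative to BMM, 33.2% of them were higher and 23.0% lower in MPI-2 mock, and 36.5% higher and 23.6% lower in MPI-2 LPS. Among 59 genes of DNA replication and S phase, 31 fell and 0 rose with LPS in MPI-2 (median -0.52), and 31 fell and 2 rose in BMM (median -0.46), so that 52.5% fell in each. In MPI-2 E2f2 (-1.68 ± 0.16), the polymerase subunit Pole2 (-0.95 ± 0.13) and Mcm2 (-0.97 ± 0.15) fell. In BMM the maintenance methyltransferase Dnmt1 (-1.82 ± 0.14) and the helicase subunit Mcm7 (-1.29 ± 0.11) fell, while the proliferation marker Mki67 (1.66 ± 0.13) and the repressor E2f8 (1.35 ± 0.21) rose. Relative to BMM, 59 of 59 were higher in MPI-2 mock (median 2.03) and 55 after LPS (median 2.05), with 0 lower in either. Mki67 (3.47 ± 0.13), Mcm7 (2.80 ± 0.11) and Ccna2 (2.91 ± 0.12) stood among them in mock. H1f2, H2bc4, H2bc21 and H3c4, lower in MPI-2 mock, moved against the direction of every gene of that list.

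Of 43 genes of histone transcription and 3' end processing, 5 fell and 0 rose with LPS in MPI-2 (median -0.12), and 11 fell and 5 rose in BMM (median -0.18). The shares that fell, 11.6% in MPI-2 and 25.6% in BMM, lay near those of all genes or of genes above background, and so did the 11.6% that rose in BMM. In MPI-2 Slbp (-0.08 ± 0.21, adjusted p = 0.904) and Npat (0.26 ± 0.18, 0.467) did not pass, and cyclin E1 (Ccne1, -0.84 ± 0.14), its kinase Cdk2 (-0.79 ± 0.18) and the histone pre-mRNA nuclease Mblac1 (-0.64 ± 0.16) fell. In BMM Slbp fell by 0.97 ± 0.21, Casp8ap2 by 1.21 ± 0.14 and Npat by 0.74 ± 0.18, and the cleavage factor subunits Cpsf2 (0.59 ± 0.13) and Cstf2 (0.58 ± 0.17) rose, with Nfyb (0.61 ± 0.18), whose product binds CCAAT boxes, Ddx19b (0.57 ± 0.18) and Hnrnpul1 (0.37 ± 0.12). The responses differed for Npat (1.002 ± 0.25, adjusted p = 0.0141) and Casp8ap2 (0.90 ± 0.19, 0.00502) but did not pass for Slbp (0.89 ± 0.30, 0.0664). In MPI-2 mock 26 of the 43 (60.5%, where 33.2% of genes above background did) exceeded BMM (median 0.73) and 3 were lower, with Slbp higher by 1.53 ± 0.21 and Npat by 0.94 ± 0.18. The uridylyl transferases Tut4 (-4.92 ± 0.24) and Tut7 (-0.77 ± 0.14), which tail histone messages for decay in human cells, and Mif4gd (-1.14 ± 0.19), a partner of Slbp in translation, were the 3 lower ones. After LPS 24 were higher (median 0.61), and the same 3 genes were lower.

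Of 30 histone chaperones 10 fell and 0 rose with LPS in MPI-2 (median -0.17), and 12 fell and 4 rose in BMM (median -0.33), so that 33.3% fell in MPI-2 and 40.0% in BMM. The 13.3% that rose in BMM lay near the 14.3% of genes above background. In MPI-2 Hira (-0.71 ± 0.14) and Asf1b (-0.79 ± 0.16) fell, and so did Tonsl, whose MPI-2 LPS mean (2.92 ± 0.14) lay under background, against 3.78 ± 0.19 in MPI-2 mock. The H3.3 chaperone Daxx (1.71 ± 0.18) and the H3-H4 chaperone Asf1a (1.64 ± 0.20) rose in BMM, as did Supt6 (0.59 ± 0.14) and the acetyltransferase Hat1 (0.39 ± 0.13), while Mms22l (-0.87 ± 0.12) fell. MPI-2 mock exceeded BMM mock in 18 of 30 (median 0.69), among them Mms22l (2.44 ± 0.12), Asf1b (2.92 ± 0.16) and Hat1 (2.01 ± 0.13), and was lower in 2, Spty2d1 and Atrx. After LPS 19 were higher (median 0.91) and 3 lower (Daxx, Znhit1 and Vps72). The shares higher were 60% in mock and 63.3% after LPS, where 33.2% and 36.5% of genes above background were higher.

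Of 9 histone genes outside the clusters, 8 of them variants, most of which are made in all phases of the cycle, and the other the Hist4 locus gene H4f16, 4 fell and 0 rose with LPS in MPI-2 (median -0.47), and 4 fell and 2 rose in BMM (median -0.50). Among the 9, H3f3a (group means 2.56 to 2.74) and Macroh2a2 (2.01 to 2.39) lay under background in every group. A probe set under background does not show that its gene was not transcribed. H3f3b, which was also sought, was not measured by a probe set of its own. The centromere histone Cenpa fell by 1.14 ± 0.13 in MPI-2 and by 2.56 ± 0.13 in BMM. H2aj (-1.38 ± 0.15) and H2az2 (-1.21 ± 0.17) fell in BMM, whereas H2az1 (0.77 ± 0.11) and the macroH2A gene Macroh2a1 (0.50 ± 0.13) rose there. H2az1 fell in MPI-2 (-0.48 ± 0.11), and its responses differed (-1.25 ± 0.16, adjusted p = 6.31e-05). MPI-2 was higher than BMM for 7 of 9 after LPS (median 0.66) and 6 of 9 in mock (median 0.53), with 0 lower. Of genes above background 36.5% and 33.2% were higher.

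**Figure D4:**
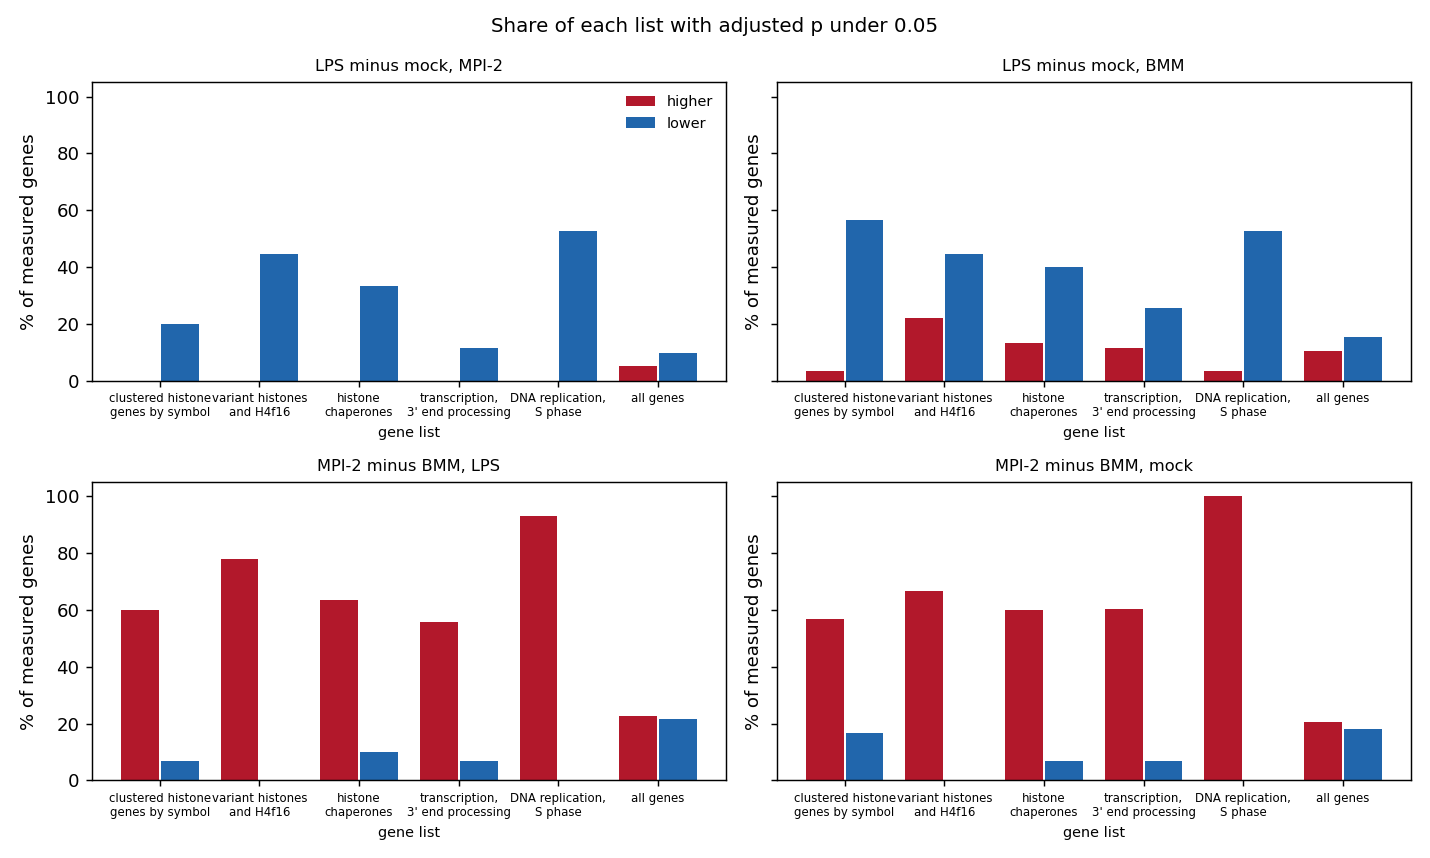
Share of the measured genes of each list (vertical axis, percent) with an adjusted p under 0.05, red for higher and blue for lower, in 4 comparisons. The lists hold 30 histone genes, 9 others outside the clusters (8 variants and H4f16), 30 chaperones, 43 genes of histone transcription and 3' end processing, 59 genes of DNA replication and S phase and all 19937 genes. In BMM the share of histone genes that fell with LPS, 17 of 30, is the tallest bar, and in mock all 59 replication genes are higher in MPI-2.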

How the data were processed

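Newly made RNA of 12 samples was measured on whole-transcript arrays. The deposited values are log2 expression values per probe set, made with RMA in affy, per the submitters' processing notes with versions not given in the sources used here. This normalization brings arrays close to a common distribution, with array medians from 3.60 to 3.79, so a change of all new RNA together would largely not show. Precision is limited by the number of arrays. The platform annotation pairs 21640 of 34760 probe sets with 1 gene and 1321 with several, and 11799 are unnamed here. Symbols of 21553 of the first kind were updated by Entrez ID through RefSeq (GRCm38.p6), which also gave coordinates and promoters. For a gene with several probe sets (954 genes) the one with the highest mean stood for it. No gene was filtered out.

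Groups came from the sample labels. The 12 arrays entered 1 limma 3.58.1 fit (R 4.3.3) of 4 group means (8 residual and 6.99 prior degrees of freedom), with 5 comparisons, and the fit was tested on simulated data. Members, lists, naming rule and comparisons were chosen with earlier results of these data known. Full statistics go to the 2 highest genes of each class, the 5 largest changes in each direction whose groups do not overlap, members that went against their class, and up to 3 genes of a list by adjusted p. A replicate block, other scalings, filters, priors and array weights, single cell types or treatments, and each array left out were tried as alternatives. Leaving out both mock arrays of replicate 2 together, and leaving germ line genes out of the counts, were chosen after seeing the data. No arrays held identical values.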

Additional observations from a re-analysis of the deposited data

Results flagged for a closer look

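The LPS responses of 9 histone genes differed between MPI-2 and BMM by the test of the difference itself. In MPI-2 minus BMM on the log2 scale these were H1f2 (3.34), H2bc4 (3.11), H2bc8 (2.12), H3c4 (1.98), H1f1 (1.32), H2bc21 (1.23), H1f5 (1.11), H1f3 (0.96) and, with the opposite sign, H2ac4 (-1.30). The MPI-2 LPS differences behind them ran from -1.31 for H2ac4 to 0.22 for H2bc4, and the BMM differences from -3.61 for H1f2 to -0.01 for H2ac4.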

How the results depend on the processing

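Counts of histone genes past the threshold kept within 1.5 times of the main count in most alternatives, and the exceptions follow; unless a value shows it, the cause was not tested. With each array left out in turn, the counts of higher and lower genes ran from 0 to 2 and 13 to 19 for LPS in BMM, 0 and 3 to 11 for LPS in MPI-2, 6 to 11 and 1 to 2 for the difference, 13 to 18 and 5 to 7 for mock, and 16 to 19 and 0 to 2 for LPS between cell types. Centring each array on its genes above background moved the median of all genes by 0.25 (LPS in BMM), 0.20 (LPS in MPI-2), -0.05 (difference), -0.30 (mock) and -0.36 (LPS between cell types). With it 5 genes rose with LPS in BMM, 3 fell with LPS in MPI-2, 8 were lower in MPI-2 mock and 5 in MPI-2 LPS. H2bc22 was then lower in MPI-2 LPS (-0.33, adjusted p = 0.0386), against 0.03 without centring. LPS in MPI-2 lowered 10 genes when genes above background alone were tested, 15 with array weights and 14 with the 6 MPI-2 arrays alone, and raised 1 in both of the last. The number of all genes that passed was not counted in any alternative. The 1 gene higher with LPS in BMM (H1f7) was not called with the 6 BMM arrays alone or without both mock arrays of replicate 2, and it is no cluster gene and a germ line gene, so both of those counts were 0. The 2 genes lower in MPI-2 LPS became 0 after cyclic loess, 1 after quantile normalization, 1 with the 6 LPS arrays alone, 0 inside the clusters and 1 without germ line genes. Same-numbered LPS and mock arrays had deviations that correlated between -0.15 and 0.05 (MPI-2) and between -0.09 and 0.24 (BMM), so the numbers were not taken as pairs. These values, the block and the omission of both replicate 2 mock arrays use the titles' numbers, which the MPI-2 mock descriptions (2 to 4) contradict. With the replicate block 0 and 8 genes rose and fell with LPS in MPI-2, 1 and 18 in BMM, and the difference, mock and LPS comparisons had 8 and 1, 18 and 5, and 18 and 2. Over single genes, the call, with its direction where a gene passed, was kept in 611 of 655 alternative values (LPS in BMM), 586 of 655 (LPS in MPI-2), 601 of 625 (difference), 601 of 655 (mock) and 630 of 655 (LPS, MPI-2 minus BMM). A change of sign in a gene that passed in neither fit was not counted as a change. Signal near background limits H3c4, H3c15, H2bc21, H2bc22 and H2ac4 in BMM.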

Other observations

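Of the 3 genes of the Hist3 and Hist4 loci that now carry other symbols, 0 passed for LPS in either cell type by limma, with unadjusted p under 0.05 in 1 for MPI-2 and 0 for BMM. Of all 19937 genes, 4694 had such a p for LPS in MPI-2 and 7017 in BMM. H2aw was lower in MPI-2 mock (-0.82 ± 0.20) and MPI-2 LPS (-1.13 ± 0.20) than in BMM, H4f16 was higher in MPI-2 LPS (0.66 ± 0.24), and H2bu2 did not pass in either. H4f16 is also counted among the 9 histone genes outside the clusters above.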
